A study of Glycine max with 12 samples.

Results

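The 133 soybean genes described here are those that set roots labelled OX3 apart from roots labelled W in every library, outside one stretch of chromosome 16. Each had a mean of at least 1 CPM (the count scaled to the raw total of its library) over 12 libraries, and its 6 OX3 values lay all above or all below its 6 W values. Genes from Glyma.16G159300 to Glyma.16G214500 in the numbering, a stretch that holds 22 further separating genes, were left out. Of the 28288 genes outside the stretch at or above 1 CPM, among 43517 genes in all, 96 were higher in OX3 (0.339%) and 37 were lower (0.131%). These shares are what the rule itself picked out, so the difference between OX3 and W is given below as a description, with no test. How many genes would separate 6 libraries from 6 by random ordering alone was not tested.

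RNA was sequenced from roots of Glycine max in 4 groups of 3 libraries. W and OX3 roots had each received MnSO4 at 5 µM, the control, or at 50 µM, the manganese (Mn) treatment. In the column names of the authors' tables W appears as WT and OX3 as OX. What OX3 carries, whether it is a single line, how old the plants were and how many plants made up a library are not given in the sources used here, and nothing says that libraries of one group came from separate plants. The spread behind the p-values may therefore be technical, since it is that among these libraries alone. The libraries held between 15175866 and 19408318 counts, and 3 counts in 1 library correspond to between 0.155 and 0.198 CPM. None of the 43517 identifiers could be paired with a name in the reference table, which holds 59048 genes (0 matched). Members are therefore given by identifier, and no role is assigned to any of them. For the same reason the root label could not be checked against marker genes. In an identifier such as Glyma.20G176500 the digits ahead of the G give the chromosome and the later digits the order along it. A place is the usual step between the numbers of neighbouring genes.

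Manganese is a micronutrient that plants need as a cofactor, among others of photosystem II and of the mitochondrial superoxide dismutase, and that becomes toxic when it is taken up in excess. Roots deal with an excess by limiting uptake, by moving the metal into vacuoles and by chelating it. Soybean descends from ancient whole-genome duplications and keeps many genes as close copies, so reads of one copy can be counted for another.

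Members were ranked by the difference between OX3 and W in mean log2(CPM + 0.5), a scale on which the added 0.5 shrinks the differences of genes with few reads. On that scale Glyma.20G176500 on chromosome 20 ranked first of the 96 higher genes, and per gene length it had their highest mean level. At 5 µM, in the order of the replicate numbers, it stood at 2532, 1893 and 1370.0 CPM in OX3 and 404, 320.4 and 142 CPM in W. The corresponding values at 50 µM were 1454, 2205 and 1809.9 CPM in OX3 and 54.9, 91.3 and 190.4 CPM in W. All OX3 libraries lay far above all W libraries, and the lowest OX3 library was 3.39 times the highest W library. The ratio of group means was 6.69 at 5 µM and 16.3 at 50 µM, where the W mean was lower. Per gene length its level was 895 and 845 FPKM (a level scaled by both gene length and library total) in OX3 at 5 and 50 µM, and 134 and 52 FPKM in W. In bulk roots such as these, more cells that express a gene and more RNA of it per cell cannot be told apart.

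A further 3 members higher in OX3 had OX3 values that clustered well away from W at both concentrations. Glyma.07G266400 was at 33.8, 47.1 and 89.5 CPM in OX3 and 7.49, 8.89 and 7.48 CPM in W at 5 µM. At 50 µM the same gene was at 81.9, 65.1 and 77.9 CPM in OX3 and 4.47, 10.4 and 17.6 CPM in W, so that its group means differed 7.14-fold and 6.92-fold. The highest of its W values was in W replicate 3 at 50 µM, and the lowest OX3 value was 1.92 times that value. Glyma.17G218600 was at 17.8, 19.4 and 19.3 CPM in OX3 and 2.82, 3.37 and 2.47 CPM in W at 5 µM, and at 17.6, 21.7 and 16.9 CPM in OX3 and 1.34, 1.94 and 6.2 CPM in W at 50 µM. Its 6 OX3 libraries spanned only 16.9 to 21.7 CPM, while W spanned 1.34 to 6.2 CPM. Glyma.11G103100 was at 9.94, 5.17 and 5.75 CPM in OX3 and 1.9, 0.981 and 0.784 CPM in W at 5 µM, and at 4.55, 6.26 and 7.38 CPM in OX3 and 0.559, 0.648 and 1.26 CPM in W at 50 µM. The group means of this gene differed 5.69-fold at 5 µM and 7.36-fold at 50 µM.

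Glyma.20G066400, which ranked after several of these genes on the log2(CPM + 0.5) scale, was close to 0 in W and present in OX3. It had 7 counts in the 3 W libraries at 5 µM against 146 in OX3, and 6 against 106 at 50 µM. With 95% exact intervals that cover counting error only, the ratio of OX3 to W was 18.7 (8.84 to 47.3) at 5 µM and 17.8 (7.9 to 49.5) at 50 µM. The lowest OX3 library, at 1.65 CPM, was 5.08 times the highest W library, the widest gap among the 96. That W library, replicate 2 at 50 µM, held only 5 counts. Glyma.07G119700 was at 6.49, 1.95 and 4.48 CPM in OX3 and 0.977, 0.981 and 0.603 CPM in W at 5 µM, and at 3.36, 6 and 3.38 CPM in OX3 and 0.559, 1.04 and 0.542 CPM in W at 50 µM. No W value of Glyma.07G119700 exceeded 1.04 CPM.

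A pair of members, Glyma.03G259900 and Glyma.03G260100, lay 2 places apart on chromosome 3, with lower W values at 50 µM than at 5 µM. Glyma.03G260100 was at 23.3, 24.9 and 19.2 CPM in OX3 and 11.4, 5.15 and 4.58 CPM in W at 5 µM and at 12.7, 14.9 and 23.4 CPM in OX3 and 2.63, 1.88 and 0.421 CPM in W at 50 µM. Glyma.03G259900 was at 10.9, 9.98 and 5.91 CPM in OX3 and 3.96, 2.45 and 3.26 CPM in W at 5 µM and at 4.19, 8.63 and 19.1 CPM in OX3 and 1.45, 0.648 and 0.181 CPM in W at 50 µM. In both genes the 3 W libraries at 50 µM lay below the 3 at 5 µM, while the OX3 libraries of the 2 concentrations overlapped. The ratio of OX3 to W therefore ran from 3.19 at 5 µM to 10.3 at 50 µM for Glyma.03G260100, and from 2.77 to 14 for Glyma.03G259900. The gene between them, Glyma.03G260000, is no member and reached at most 20.4 CPM and at least 11.99 CPM in the 12 libraries, with the materials overlapping. Whether reads of the 2 members are shared between similar copies was not tested.

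In the other 4 of the 12 members ranked first, OX3 replicate 2 was the highest OX3 library at 5 µM and replicate 3 the highest at 50 µM. Glyma.10G229300 was at 43.6, 21.3 and 22 CPM in OX3 and 14.3, 1.35 and 3.56 CPM in W at 5 µM and at 15.4, 43.1 and 19.6 CPM in OX3 and 9.83, 7.26 and 3.13 CPM in W at 50 µM. Glyma.06G141200 was at 77.2, 41 and 27.1 CPM in OX3 and 23.6, 9.07 and 4.82 CPM in W at 5 µM and at 24.6, 88.3 and 31.1 CPM in OX3 and 21.2, 12.8 and 8.06 CPM in W at 50 µM. Both were higher in W control replicate 2 than in the other W controls, which brought that library to within 1.08 and 1.04 times of the nearest OX3 library. Glyma.08G360700 had OX3 values between 12.2 and 28.9 CPM and W values between 2.94 and 9.01 CPM. For Glyma.10G239900 the OX3 values lay between 2.04 and 7.78 CPM and the W values between 0.324 and 1.74 CPM. In all 4 genes W control replicate 2 was the W library nearest to OX3.

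**Figure D1:**
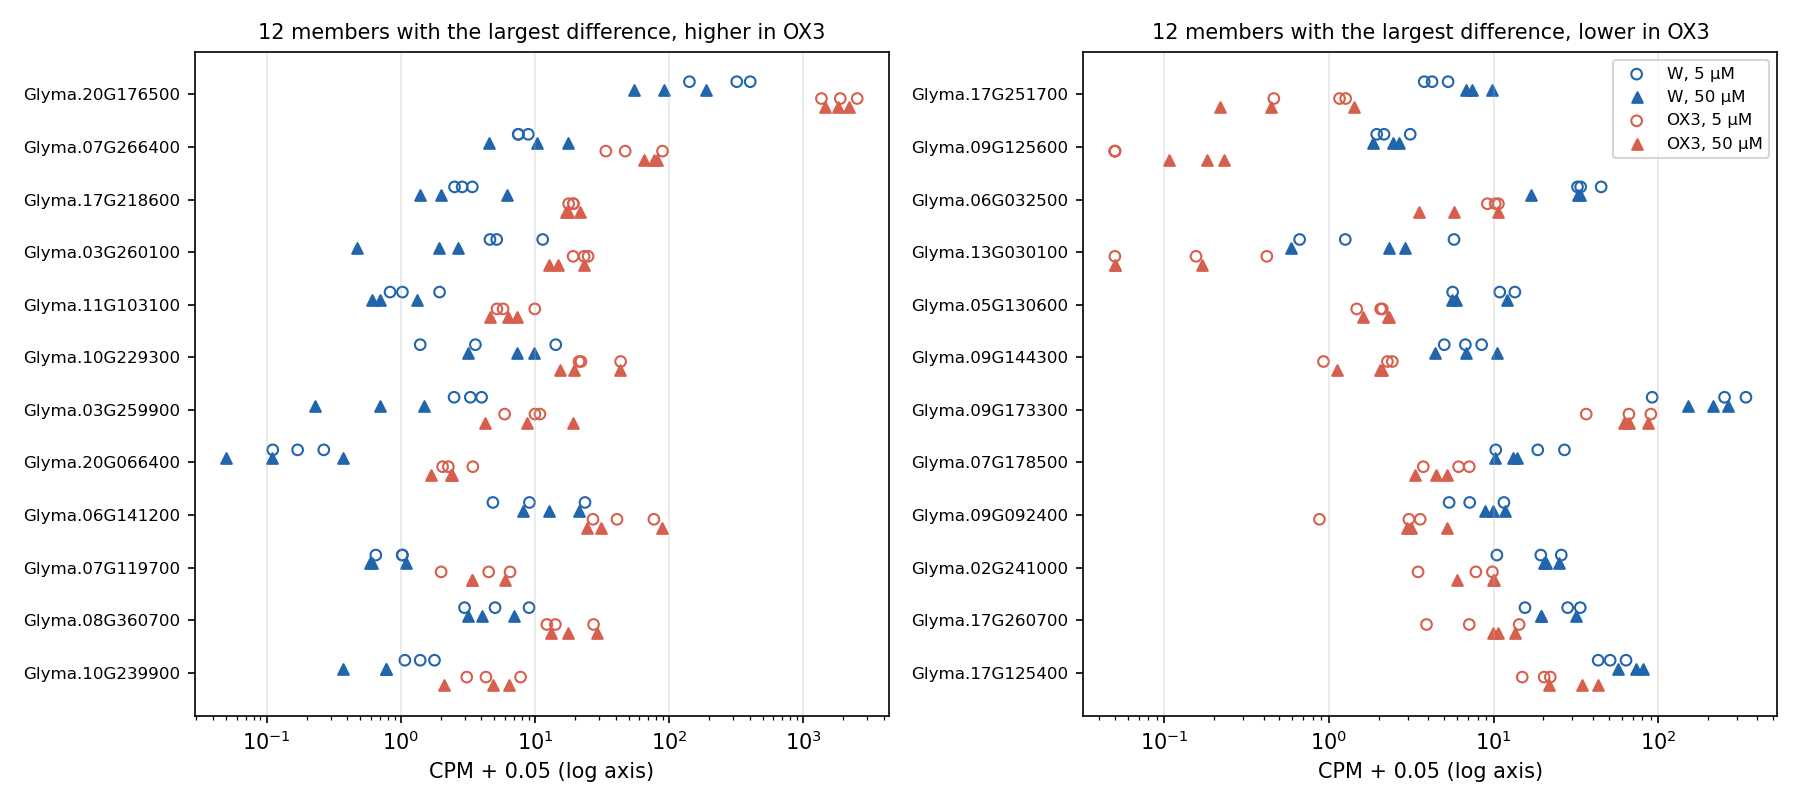
CPM in each of the 12 libraries, with 0.05 added so that 0 can be drawn on the log axis, for the 12 members with the largest difference in mean log2(CPM + 0.5) in each direction. Blue symbols are W and red symbols OX3, open circles 5 µM and filled triangles 50 µM, and in each row the colours do not overlap.

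The remaining 84 genes higher in OX3 differed less, with mean differences in log2(CPM + 0.5) between 0.25 and 1.77 and a median of 0.69. Over all 96 the median difference was 0.76 in log2 units, and it was 0.75 at 5 µM and 0.72 at 50 µM. At least 2-fold differences were found in 32 of the 96, and differences under 1.5-fold in another 32. Among all 28288 genes, 717 were on average at least 2-fold higher in OX3, so most genes with a mean difference of that size did not separate the libraries completely. Glyma.06G031100, with a mean of 328 FPKM the next after Glyma.20G176500 per gene length, was at 256, 616 and 359 CPM in OX3 and 182, 228 and 184 CPM in W at 5 µM and at 230.3, 252 and 375 CPM in OX3 and 66.6, 180.4 and 172 CPM in W at 50 µM. Its W replicate 3 at 5 µM came within 1.01 times of the lowest OX3 library.

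Among the 37 genes lower in OX3, Glyma.17G251700 ranked first by the difference in mean log2(CPM + 0.5). At 5 µM it was at 0.412, 1.11 and 1.21 CPM in OX3 and 4.18, 3.74 and 5.25 CPM in W, and at 50 µM it was at 1.38, 0.395 and 0.169 CPM in OX3 and 7.37, 6.74 and 9.75 CPM in W. The W values lay higher at 50 µM than at 5 µM in every library, while the OX3 values of the 2 concentrations overlapped. W exceeded OX3 4.82-fold at 5 µM and 12.3-fold at 50 µM. Another 2 of these genes were almost without reads in OX3, and their ratios of W to OX3 were larger than those of Glyma.17G251700. At 5 µM the 3 W libraries of Glyma.09G125600 summed to 120 counts and the 3 OX3 libraries to 0. With a floor of 3 counts summed over the OX3 group, OX3 was at least 44.7-fold lower. At 50 µM it had 6 counts in OX3, spread over all 3 libraries, and 114 in W, a ratio of W to OX3 of 18.9 (95% exact counting interval 8.41 to 52.5). Its lowest W library was 10.04 times its highest OX3 library, the widest gap of all 133 members. That OX3 library, replicate 2 at 50 µM, held only 3 counts.

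For Glyma.13G030100 the OX3 libraries summed to 9 counts and the W libraries to 135 at 5 µM, and to 2 and 95 at 50 µM. The ratios of W to OX3 were 16.8 (95% exact counting interval 8.57 to 37.4) and 47.2 (12.7 to 395). Unlike Glyma.09G125600, it varied widely within W, from 0.542 CPM in replicate 3 at 50 µM to 5.7 CPM in replicate 2 at 5 µM. The size of its ratio therefore rests on few counts in OX3 and on uneven W libraries.

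The next members lower in OX3 had measurable reads in both materials. Glyma.06G032500 was at 9.12, 10.2 and 10.7 CPM in OX3 and 45, 33.8 and 32.3 CPM in W at 5 µM and at 5.69, 3.49 and 10.6 CPM in OX3 and 32.5, 33.3 and 16.8 CPM in W at 50 µM. W exceeded OX3 3.71-fold and 4.16-fold in the group means. For Glyma.05G130600, which was at 2.01, 2.06 and 1.42 CPM in OX3 and 5.59, 13.4 and 10.9 CPM in W at 5 µM, the lowest W library over both concentrations was 2.45 times the highest OX3 library. Glyma.09G144300 lay between 4.34 and 10.4 CPM in W and between 0.876 and 2.38 CPM in OX3. Glyma.07G178500 spanned 10.1 to 26.9 CPM in W and 3.29 to 7.07 CPM in OX3. In these 4 genes, which like all members are apart at both concentrations by the rule, W was between 2.87 and 5.44 times OX3 in the group means.

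Glyma.09G173300 had the highest level per gene length of the 12, a mean of 128 FPKM. It was at 36.5, 66.4 and 90.3 CPM in OX3 and 92, 342 and 253 CPM in W at 5 µM and at 86.8, 66.1 and 62.1 CPM in OX3 and 151, 214 and 264 CPM in W at 50 µM. W control replicate 2 stood far below the other W libraries and only 1.02 times above the highest OX3 library. Glyma.09G092400, Glyma.02G241000, Glyma.17G260700 and Glyma.17G125400 completed the 12, and in each of them W control replicate 2 was again the W library nearest to OX3. The group means of these 4 were between 2.08 and 3.25 times higher in W. The other 25 genes had mean log2 differences from -1.22 to -0.31. Over all 37 the median was -0.94 in log2 units, with -1.01 at 5 µM and -1.01 at 50 µM. Per gene length Glyma.13G208200 had the highest level of the 37, with a mean of 169.6 FPKM, W values from 455 to 675 CPM and OX3 values from 252 to 416 CPM.

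**Figure D2:**
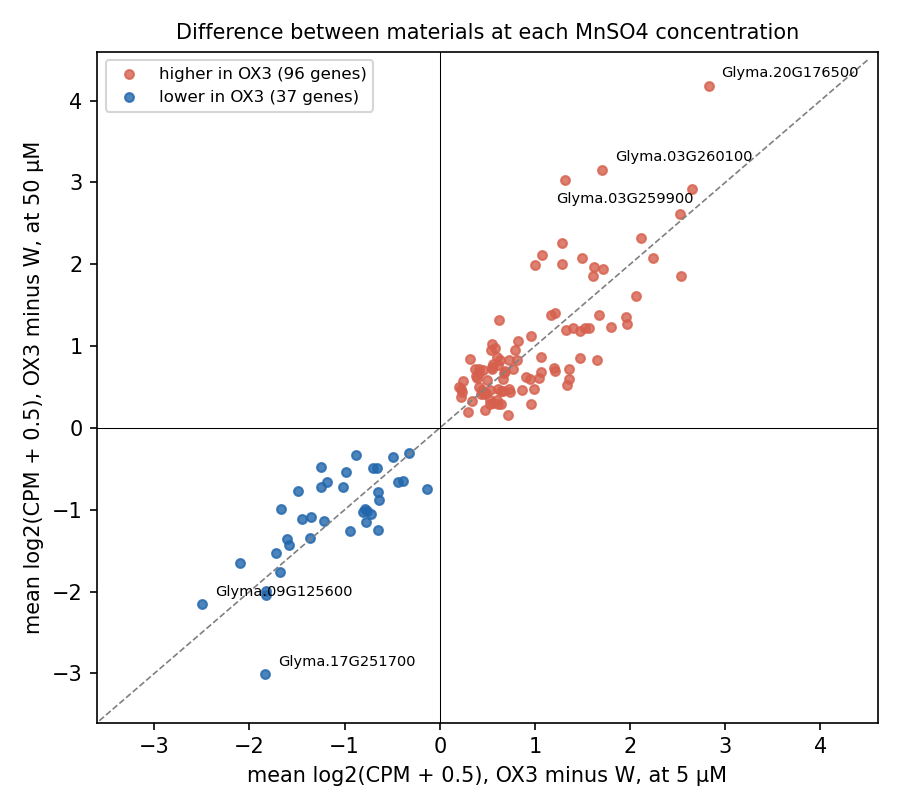
Difference between OX3 and W in mean log2(CPM + 0.5) at 5 µM (x axis) and at 50 µM (y axis) for the 96 members higher and the 37 lower in OX3, with the dashed line marking equal differences. The quadrants are fixed by the rule that chose the genes; the spread about the line shows members such as Glyma.03G259900 whose difference was larger at 50 µM.

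The differences at the 2 concentrations come from separate libraries, though the rule used both. Of the 96 genes higher in OX3, 47 had the larger difference at 50 µM and 49 at 5 µM. Of the 37 lower genes, 16 had the larger difference at 50 µM and 21 at 5 µM. The larger difference thus fell at either concentration in both directions.

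For most members the separation was narrow. The median ratio between the nearest OX3 and W libraries was 1.05 among the higher and 1.05 among the lower members. The nearest libraries were at least 1.5-fold apart in 8 higher and 5 lower members, and at least 2-fold apart in 4 and 3. Those 7 were Glyma.20G066400, Glyma.20G176500, Glyma.17G218600 and Glyma.11G103100 among the higher genes, and Glyma.09G125600, Glyma.17G251700 and Glyma.05G130600 among the lower. At the edge of the rule, Glyma.03G130000 was in with a ratio of 1.00037 and Glyma.09G226900 with 1.00218, and Glyma.15G130000 was out with 0.997776 and Glyma.11G032300 with 0.99755. On the lower side Glyma.17G125400 was in with 1.00743 and Glyma.15G098200 with 1.01491, and Glyma.04G141800 was out with 0.992816 and Glyma.08G032800 with 0.992353. At the minimum level, Glyma.11G019600 was in with a mean of 1.03 CPM and Glyma.03G218800 with 1.06 CPM, whereas Glyma.15G176800 at 0.999839 CPM and Glyma.20G074700 at 0.883371 CPM also separated the materials but were out.

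Many of these narrow cases changed with the scaling. On raw totals the median of all 28288 genes was 0.17 log2 units higher in OX3, and after TMM normalisation, which sets the totals so that most genes show no difference, it was 0.02. On the TMM scale 37 of the 96 higher and 16 of the 37 lower members still separated all libraries, 53 genes in all. Applied afresh on that scale, the rule gave 75 higher and 34 lower genes. All 12 of the higher genes ranked first remained separate, and 7 of the 12 lower genes. Those that did not were Glyma.09G173300, Glyma.09G092400, Glyma.02G241000, Glyma.17G260700 and Glyma.17G125400.

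**Figure D3:**
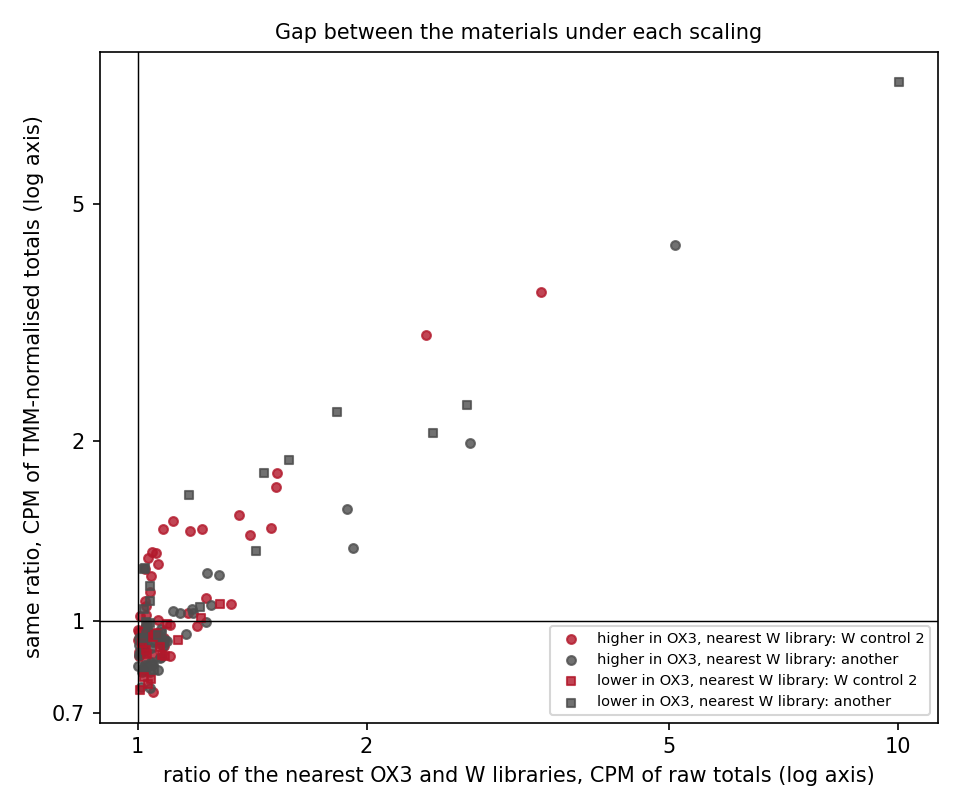
Ratio of the nearest OX3 and W libraries for each member on CPM of raw totals (x axis) and on CPM of TMM-normalised totals (y axis), both on log axes, with circles for genes higher and squares for genes lower in OX3 and red where W control replicate 2 was the nearest W library. Points under the horizontal line no longer separate the materials on the TMM scale; the 7 genes at least 2-fold apart on raw totals all lie above it.

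One W library often stood nearest to OX3. W control replicate 2 was the W library nearest to OX3 in 50 of the 96 higher and in 17 of the 37 lower members. Its TMM factor was 1.21, next to 1.25 for OX3 control replicate 2, while the other W libraries had factors from 0.859 to 0.964. Replicate 2 was the highest of the 3 controls in both W and OX3 in 48 of the 96 higher members (50%) and in 2 of the 37 lower members (5.41%), where the share among all 28288 genes was 39.4%. Replicate 3 was so in 2.08% of the higher and 27.0% of the lower members, against 10.2% of all genes. For replicate 4 the shares were 6.25% and 13.5%, against 8.54%. The part of this variation in the results was not tested.

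Leaving out 1 library mostly adds genes by construction, and the size of the gain differed between libraries. Without W control replicate 2 the rule gave 878 higher and 235 lower genes. Without OX3 control replicate 3 it gave 223 and 176, and without OX3 control replicate 4 it gave 170 and 56. At 50 µM the counts were 199 and 50 without OX3 replicate 2, 154 and 74 without OX3 replicate 3, 145 and 45 without OX3 replicate 4, and 155 and 55 without W replicate 1. Without any one of the other 5 libraries the counts lay between 99 and 126 for higher and between 37 and 48 for lower genes. On the TMM scale, tried after the data were seen, leaving out W control replicate 2 gave 393 higher and 456 lower genes, so that lower genes outnumbered higher genes there.

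**Figure D4:**
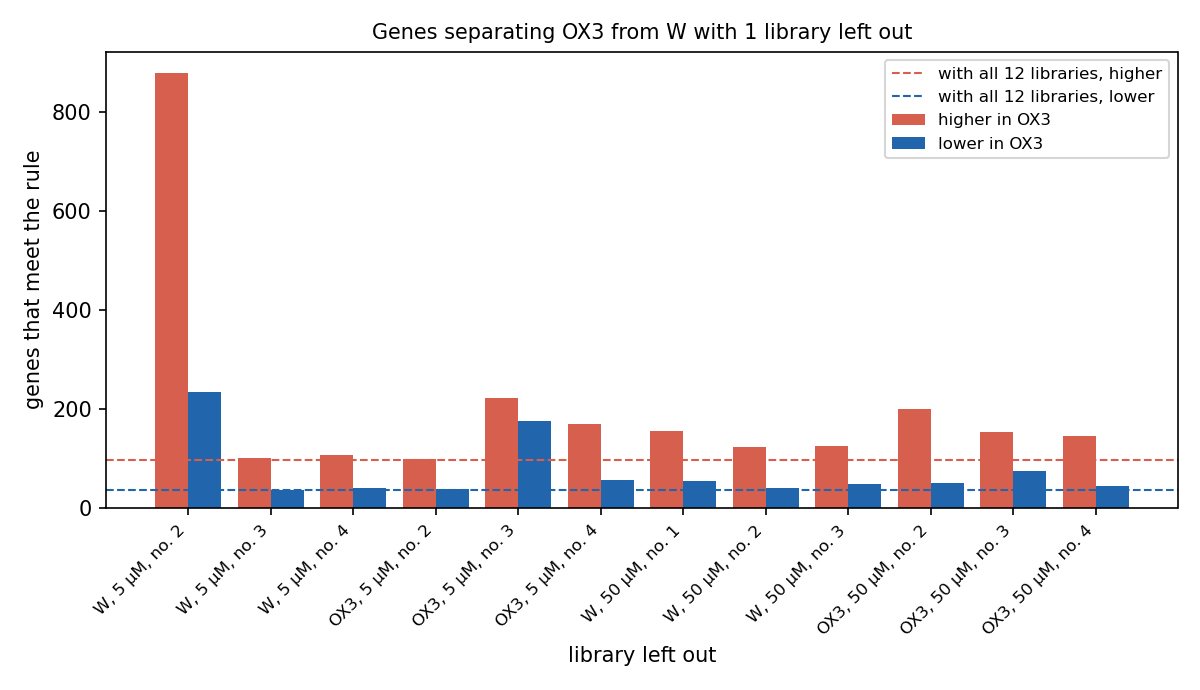
Number of genes outside the chromosome 16 stretch that met the rule when the library named on the x axis was left out, red for genes higher and blue for genes lower in OX3. Dashed lines mark 96 and 37, the numbers with all 12 libraries; the bars without W control replicate 2 reach 878 and 235.

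The response of the members to 50 against 5 µM MnSO4 was tested with edgeR's quasi-likelihood test over all 31841 genes that passed its filter, which all 133 members did. The rule did not use the treatment, but a gene that changes strongly with Mn is less likely to keep all libraries of the materials apart, so a low number of calls is favoured by the choice. In W, 0 of the 96 higher and 0 of the 37 lower members passed an adjusted p of 0.05, where 0.00314% of all genes did. At an unadjusted p under 0.05 there were 10 of the 96 higher members, 9 of them lower at 50 µM, and 2 of the 37 lower members, against 18.6% of all genes. That share covers both directions, and its split was not counted. On raw totals, all W libraries at 50 µM lay below all those at 5 µM in 17.1% of the 28288 genes, and above in 8.41%. DESeq2 called 4 members, all from the genes higher in OX3, where it called 4.65% of all genes. Glyma.03G175800 and Glyma.16G090000 among them were chosen after their values were seen. The median log2 fold change in W was 0.09 over the higher and 0.03 over the lower members, against -0.02 over all genes tested, and in OX3 it was 0.08 and 0.13, against -0.03.

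Glyma.03G260100 had a log2 fold change to Mn in W of -1.93 (SE 0.47), and edgeR's adjusted p was 0.162, against 0.0078 in DESeq2. Glyma.03G259900 had one of -1.95 (SE 0.61), with adjusted p-values of 0.175 in edgeR and 0.0413 in DESeq2. Glyma.03G175800 was at 20.5 ± 2.0 CPM at 5 µM and 8.91 ± 3.1 CPM at 50 µM in W (SD, n = 3), and at 54.2 ± 25 CPM and 44.2 ± 12 CPM in OX3 (SD, n = 3). Its 3 W libraries at 50 µM lay below the 3 at 5 µM, and the log2 fold change in W was -1.09 (SE 0.32), with adjusted p-values of 0.166 in edgeR and 0.0456 in DESeq2. Glyma.16G090000, which lies on chromosome 16 outside the stretch left out, was at 9.87 ± 3.9 CPM and 4.06 ± 1.6 CPM in W (SD, n = 3) and at 20.2 ± 2.8 CPM and 19.4 ± 7.7 CPM in OX3 (SD, n = 3). Its log2 fold change in W was -1.13 (SE 0.33), with adjusted p-values of 0.166 in edgeR and 0.0457 in DESeq2. The 4 calls of DESeq2 were thus not shared by edgeR.

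In OX3, 0 of the 133 members passed the threshold in edgeR's test, as 0% of all genes did, and 0 in DESeq2, which called 3.4% of all genes. At an unadjusted p under 0.05 there were 3 higher and 4 lower members in edgeR, against 15% of all genes. Averaged over both materials, edgeR called 2.32% of all genes and 0 members, with 6 higher and 4 lower members at an unadjusted p under 0.05 against 24.9% of all genes. That fit had no replicate block, and with replicate number as a block edgeR called 0 of all genes. The smallest adjusted p among members in that comparison, 0.0662 in edgeR, belonged to Glyma.09G125600, with a log2 fold change of 2.11 (SE 0.54) that rests on its 0 and 6 counts in OX3. It passed, at an adjusted p of 0.0473 in edgeR and a log2 fold change of 2.28, without OX3 replicate 4 at 50 µM. DESeq2 called Glyma.03G260100 (adjusted p = 0.0181) and Glyma.17G125400 (adjusted p = 0.0432) over both materials, where it called 11.4% of all genes. Glyma.17G125400 was at 52.7 ± 10 CPM and 70.1 ± 12 CPM in W (SD, n = 3) and at 19.1 ± 3.7 CPM and 33 ± 11 CPM in OX3 (SD, n = 3). Its log2 fold change over both materials was 0.73 (SE 0.24), and the adjusted p from edgeR was 0.0996.

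The response to Mn in OX3 was set against that in W by an interaction term, for which edgeR called 0.00314% of all genes and 0 members, and DESeq2 0.216% of all genes and 0 members. At an unadjusted p under 0.05 there were 5 higher and 2 lower members in edgeR, against 7.55% of all genes, and in all 7 the response in OX3 exceeded that in W. The 7.55% covers both directions, and its split was not counted. The median interaction was -0.003 in log2 units over the higher and 0.19 over the lower members, against 0.009 over all genes tested. For Glyma.03G259900 the log2 response in OX3 exceeded the one in W by 2.37 (SE 0.82), and edgeR gave an adjusted p of 0.648. For Glyma.03G260100 the excess was 1.69 (SE 0.64), and edgeR's adjusted p was 0.648. For Glyma.20G176500 the excess was 1.27 (SE 0.71), and for Glyma.17G251700 it was -1.29 (SE 0.89), with edgeR's adjusted p at 0.694 and 0.749. In W alone, their log2 fold changes to Mn were -1.17 (SE 0.51) and 0.98 (SE 0.59). The adjusted p-values from edgeR were 0.252 and 0.382. The larger differences between the materials at 50 µM described above for all of these genes did not pass the interaction test.

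**Figure D5:**
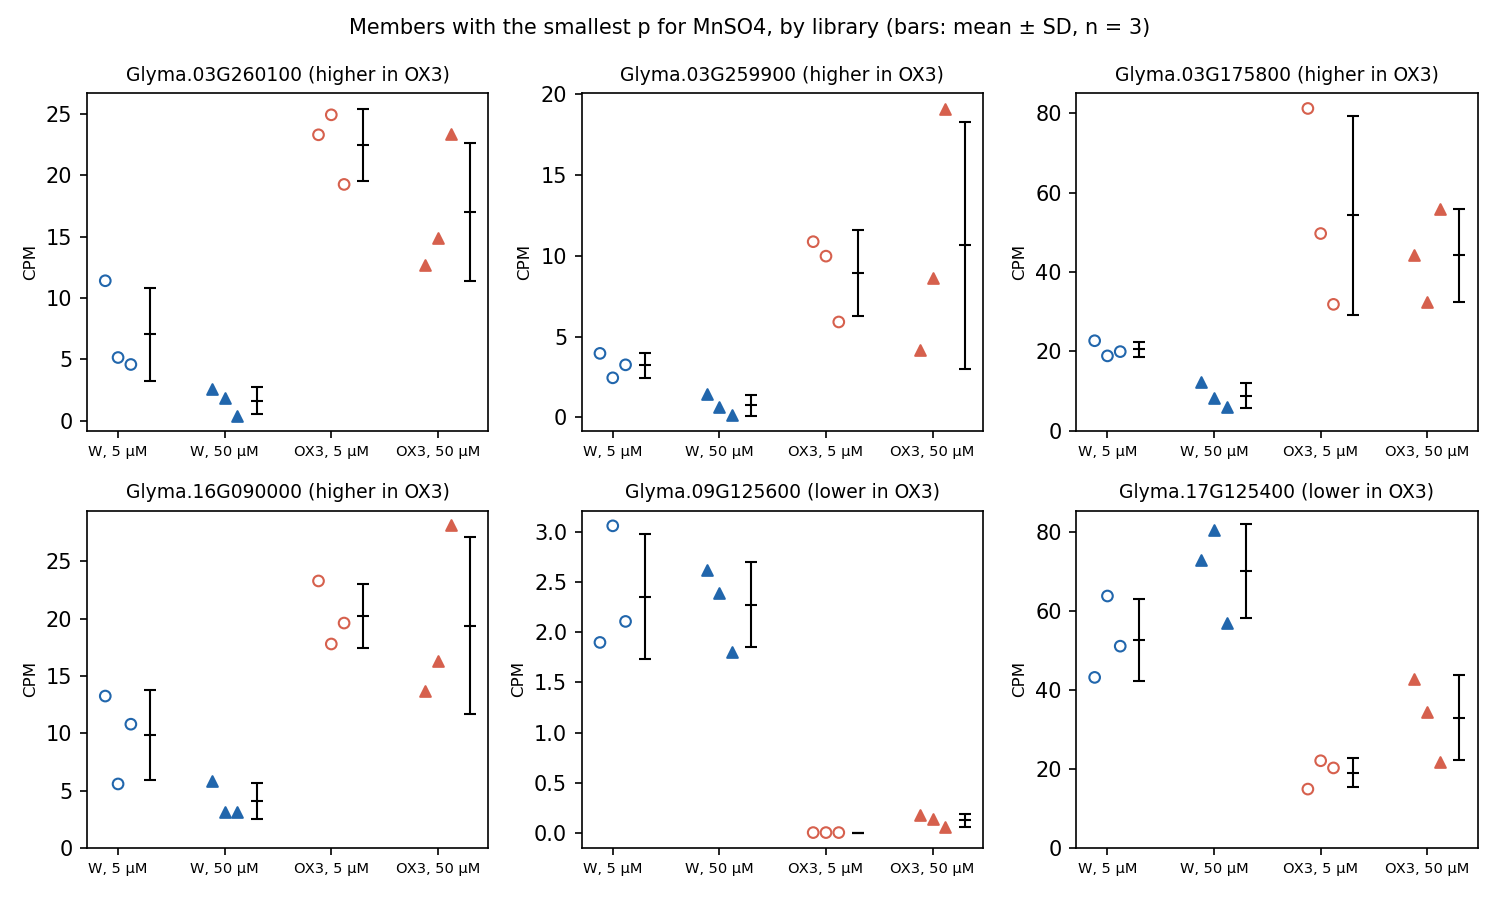
CPM by library for 6 members with small p-values for Mn, in W (blue) and OX3 (red) at 5 µM (open circles) and 50 µM (filled triangles), with bars for the mean ± SD of 3 libraries. In the 4 genes higher in OX3, W values at 50 µM lie below those at 5 µM, except that W replicates overlap in Glyma.16G090000, and Glyma.09G125600 is at 0 in OX3 at 5 µM.

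Complete separation of the 3 libraries at 50 µM from the 3 at 5 µM was counted as well. In W, 12 of the 96 higher members (12.5%) had all 50 µM libraries below all 5 µM libraries, against 17.1% of all 28288 genes, and 2 (2.08%) had them above, against 8.41%. In OX3, 5 (5.21%) had them below, against 16.3%, and 5 (5.21%) above, against 4.76%. The 37 lower members had 2 below and 2 above in W, and 3 below and 2 above in OX3. Among the higher members, 3 of the 4 shares were below those of all genes and the last lay close to it. Opposite directions in W and OX3 were found in 2 of the 133 members, Glyma.07G164700 and Glyma.13G145700, against 118 of all 28288 genes (0.417%). These separations were counted on CPM of raw totals, and the difference in share was not tested.

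Members were found on every chromosome, with between 1 and 13 each among the numbered ones, and 1 was unplaced. Chromosome 6 held 13 (8 higher and 5 lower, 0.798% of its genes at or above 1 CPM), chromosome 3 held 10 (0.77%), chromosome 11 held 11 (0.763%) and chromosome 7 held 11 (0.744%). Chromosome 14 held 1, the lower gene Glyma.14G201500, which is 0.0911% of its genes. Over all chromosomes the share was 0.47%. Outside the stretch left out, chromosome 16 held 5 members, all higher in OX3 (0.619%).

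Consecutive members no more than 20 places apart formed 12 pairs, which involved 22 genes, with 7 pairs of the same direction and 5 of opposite direction. Besides the pair on chromosome 3, Glyma.02G234100 and Glyma.02G234700 lay 6 places apart and were both higher in OX3, with differences of 0.95 and 1.38 in log2 units. Glyma.07G051200 and Glyma.07G051700, 5 places apart, were higher by 1.65 and 0.87. On chromosome 16, Glyma.16G075200, Glyma.16G076400 and Glyma.16G077900 were higher by 0.57, 0.54 and 0.69. Chromosome 6 held 3 members within 9 places, of which Glyma.06G013600 was lower in OX3 (-1.10 in log2 units) and Glyma.06G014200 and Glyma.06G014500 were higher (1.73 and 0.73). Glyma.07G119400 was lower (-0.89) and Glyma.07G119700, 3 places on, higher (1.83). Other genes at or above 1 CPM lay between the members of every pair and did not separate the materials.

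Gene length, recovered from the ratio of the deposited counts to the deposited FPKM, was not used by the rule, and its medians are given without a test. The median length was 1368.5 bp for the higher and 1998 bp for the lower members, against 1907 bp for all 28288 genes. Lengths ranged from 614 to 4483 bp among the higher and from 711 to 4300 bp among the lower members. The median level was 8.11 FPKM for the higher and 11.5 FPKM for the lower members, against 5.65 FPKM for all genes, and the minimum on the mean level applied to all of them. Of the higher members 45 had a mean of at least 10 FPKM and 10 a mean under 1 FPKM, and of the lower members 19 and 3.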

How the data were processed

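Root RNA of 12 libraries was used, in 4 groups of 3 taken from the labels. Gene counts and FPKM come from tables the authors deposited, and the FPKM are those counts scaled by gene length and library total. HTSeq 0.6.0, HISAT2 2.1.0, Bowtie2 2.2.3, TopHat2 and CASAVA are listed in the submitters' processing notes, with no role for any. The deposited gene identifiers end in a suffix that names an annotation version, and this suffix was dropped here. Beyond that suffix no genome build was found. How reads with several matches were counted was not found either, so near-identical genes may share reads. Overlapping genes on opposite strands may too.

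CPM was the deposited count scaled to the library's raw total. Levels between materials were compared as differences of the mean of log2(CPM + 0.5). The response to Mn was fitted over all genes and all 4 groups with edgeR 4.0.16 (quasi-likelihood test, TMM, edgeR's filter on low counts, Benjamini-Hochberg adjustment, threshold 0.05) in R 4.3.3, with DESeq2 1.42.0 as an alternative, and was tested on simulated data first. Total counts from 15175866 to 19408318 set the counting error, and intervals and floors cover counting error only. The members and lists were chosen with earlier results of these data known. Genes named were the 12 with the largest difference on that log2 scale in each direction, the highest FPKM in each direction, members past a Mn threshold, consecutive members within 20 places and the genes next to each threshold. Of 22 lists of gene products and the cell type markers none could be applied, since 0 identifiers matched the names table. Replicate numbers did not pair the OX3 libraries of the 2 concentrations: the correlations of deviations were -0.186, -0.021 and -0.076, none closest to its own number. In W they were 0.003 for replicate 2 and 0.274 for replicate 3, and only replicate 3 was closest to its own number. Between W and OX3, whose direct contrast was not tested here, same-numbered controls did deviate together (0.261, 0.445 and 0.272, each library closest to its own number). At 50 µM, W replicate 2 gave 0.159 and was closest to OX3 replicate 4, and W replicate 3 gave 0.303 and was closest to its own number. The interaction and the average over both materials use both W and OX3, and their main fit treated all libraries as independent. Over both materials edgeR called 740 of all genes without a replicate block and 0 with it. Alternatives were other scalings, filters, level minimums and pseudocounts, a minimum on FPKM in place of CPM, DESeq2, a replicate block and leaving out each library.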

Additional observations from a re-analysis of the deposited data

Results flagged for a closer look

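In 2 of the 133 members the libraries of the 2 concentrations separated completely in both materials but in opposite directions, on CPM of raw totals. Among all 28288 genes 118 did so (0.417%), and the difference in share was not tested. Both had a higher level at 50 µM in W and a lower one in OX3. The test of the difference between the responses gave -0.59 in log2 units (SE 0.40, adjusted p = 0.745) for Glyma.07G164700 and -0.57 (SE 0.28, adjusted p = 0.663) for Glyma.13G145700 in edgeR's quasi-likelihood test, so neither difference passed the threshold.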

How the results depend on the processing

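The numbers of members depended on single libraries. Leaving out each library in turn gave 99 to 878 higher and 37 to 235 lower genes on raw totals, and 86 to 393 higher and 35 to 456 lower genes on TMM-normalised totals, an alternative chosen after seeing the data. Against the 75 higher and 34 lower genes of that scale with all libraries, the counts that moved by over 1.5 times were 393 and 456 without W control replicate 2, then 151 and 190 when OX3 control replicate 3 was left out, and 134 and 57 for OX3 control replicate 4. At 50 µM they were 138 and 59 without W replicate 1, 133 and 83 without OX3 replicate 3, and 152 higher without OX3 replicate 2. With all libraries, TMM and the other minimums on CPM or FPKM kept each count within 1.5 times of 96 and 37, but TMM kept only 53 of the 133 genes. For Mn, DESeq2 called 4 members in W and 2 over both materials, and leaving out single libraries gave 0 to 1 member over both materials; the cause was not tested. With a replicate block edgeR called 0 of all genes in each of the 4 tests, and so 0 members, which says nothing of the members themselves. Of 320 values of 20 results for single members under alternatives, 314 kept their direction and their side of the threshold, 6 passed it and 0 reversed. Most of these 20 were picked for the smallest p-values of edgeR's main fit, which favours a kept direction. None passed the threshold in that fit. For Mn in W, Mn in OX3 and the interaction, edgeR's alternatives called at most 9 of all genes, which favours a kept side. Members near 1 CPM rest on few reads per library, which limits the precision of their ratios.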
